A study of Caenorhabditis elegans with 6 samples.

Results

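The genes described here carry the names spe (defective in spermatogenesis) and fer (defective in fertilisation), joined by htas-1, snf-10, try-5 and swm-1, which act in the sperm cell or in its activation. They were chosen by gene symbol in the array annotation and not by a measured value, though earlier results of these data were known. Of the 17118 genes measured, 34 carry such a symbol. Levels are log2 values made with RMA (robust multiarray averaging), 1 value per probe set and array, on the Affymetrix C. elegans Genome Array. All worms were Caenorhabditis elegans adults that carry the fer-15(b26) mutation. At the restrictive temperature this allele leaves the worms without functional sperm, so every group described here carries a sperm defect of its own. The worms were propagated at 20 °C, and both groups were raised at 25 °C and collected on day 4 of adulthood. The 3 control arrays come from worms on plates with vehicle (0.1% ethanol), and the 3 tyrosol arrays from worms on plates that also held 250 µM tyrosol, a phenolic alcohol of olive oil, from the egg stage on. RNA was taken from whole worms, so that fewer cells of a type and less RNA per cell cannot be told apart.

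C. elegans hermaphrodites make their sperm late in larval life and then switch the germ line to oocytes for the rest of adulthood. A spermatocyte builds a nematode-specific organelle, the fibrous body-membranous organelle, which packs the major sperm protein (MSP) and later fuses with the cell surface. After meiosis the round spermatid is activated by an extracellular signal: it extends a pseudopod that moves by assembly of MSP, and its surface proteins then bind and fuse with the oocyte. Most spe genes are transcribed in the developing sperm alone, while a few also serve other cells, and transcription in the sperm line stops before activation.

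None of the 34 genes differed between worms on tyrosol and on vehicle by more than 0.32 on the log2 scale. The rank product, the test that the series' design text names, called 0 of the 34 at an estimated false discovery rate under 0.05, and the lowest rate among them was 0.64. Over all genes it called 0.882%, 0.859% higher and 0.0234% lower, so that 0 calls among 34 genes lie near the background. Limma also called 0 of the 34, with a lowest adjusted p of 0.46, where it called 0.351% of all genes, 0.339% higher and 0.0117% lower. At an unadjusted limma p under 0.05 stood 3 of the 34, spe-10 and spe-19 with higher values and spe-5 with lower ones, beside 7.21% of all genes, 4.55% higher and 2.66% lower. On the log2 scale the 34 differences had a median of 0.020, with 19 genes above 0 and 15 below, and those of all genes a median of -0.017. The 95% intervals of the single genes, from limma and not adjusted for their number, ran from -0.60 to 0.60 at their outermost bounds. In this fit, without the replicate block, a rise of the array value by more than 1.51-fold therefore lay outside the interval of each of the 34 genes. With the replicate number as a block the upper bound of spe-10 was 0.61 on the log2 scale. These bounds hold for array values, and at faint signal they need not bound the change in transcript.

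**Figure D1:**
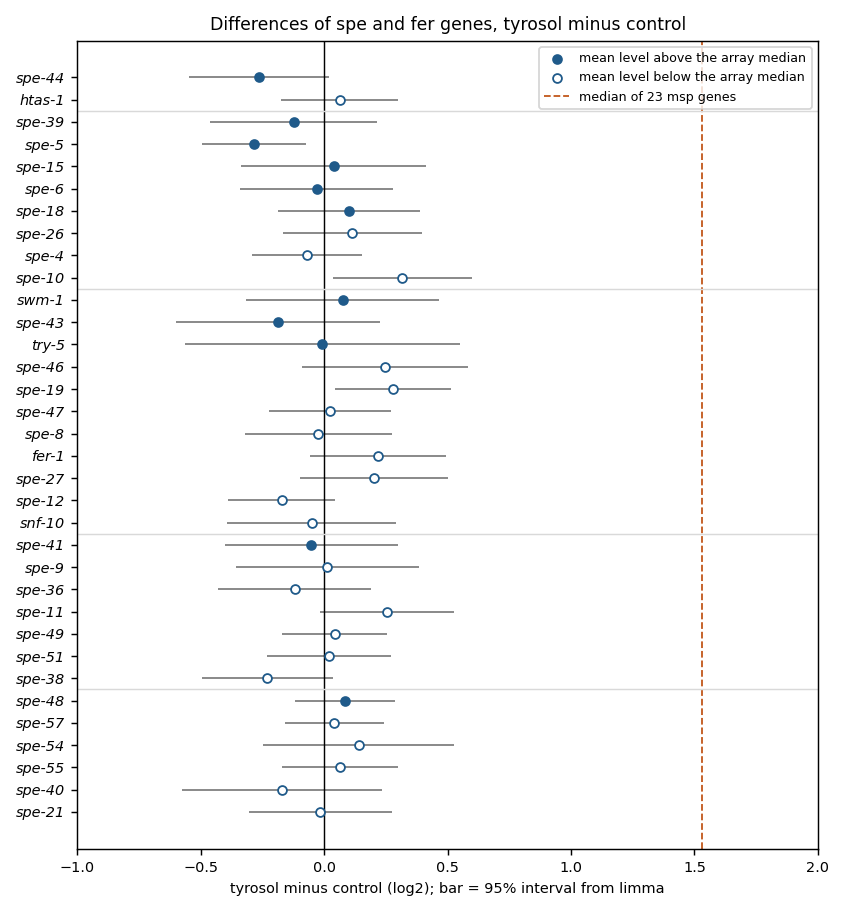
Tyrosol minus control on the log2 scale for the 34 genes, grouped from top to bottom as regulation and chromatin, organelle and cell formation, activation, fertilisation and no role stated. Points are differences of 3-array means, bars are 95% intervals from limma, and every bar ends well to the left of the dashed line, the median of 23 msp genes at 1.53.

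Signal limits what can be read from most of them. The mean level of 23 of the 34 lay below 2.58, the median of all probe sets, and that of 11 above it. The brightest probe set was that of swm-1, with a mean of 7.65, and the dimmest that of snf-10, with a mean of 1.20. Levels of different probe sets depend on their probes and do not order the genes by transcript number. The faint genes spe-9, htas-1, spe-49 and spe-38 had the same value on more than 1 array to 6 decimals, which 17.1% of all genes below the median level also had. Among all 8598 genes below the median level the rank product called 10 higher and 0 lower and limma 4 higher and 0 lower, so calls were rare at such signal.

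**Figure D2:**
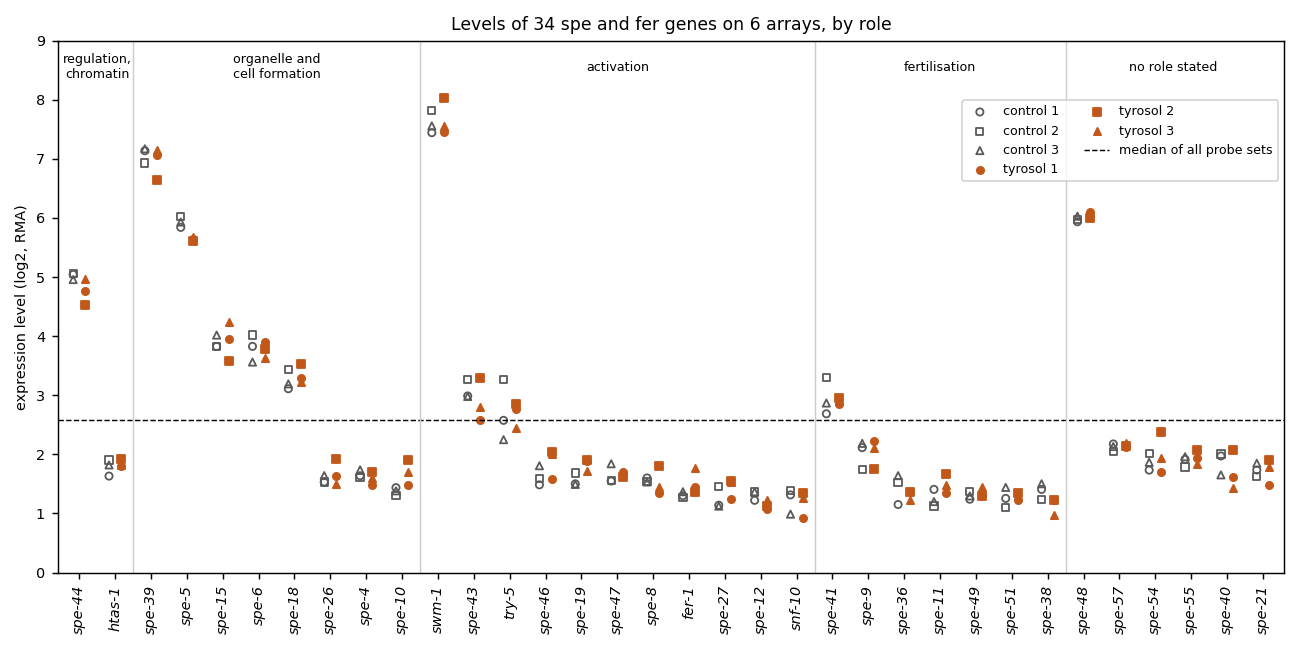
Levels of the 34 genes on the 6 arrays (log2, RMA), grouped by role and ordered by mean level within each role. Open grey symbols are control arrays and filled orange symbols tyrosol arrays, with 1 symbol shape per replicate number, and the dashed line is the median of all probe sets at 2.58. The groups of symbols lie beside each other at nearly every gene, and most genes sit below the line.

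Among the regulators, spe-44 encodes a transcription factor with a SAND domain that turns on genes of the sperm programme. Given in the order of the replicate numbers, here and below, its level was 5.04, 5.06 and 4.96 on the control arrays and 4.76, 4.53 and 4.97 on the tyrosol arrays. Tyrosol replicates 1 and 2 lay below all controls, but tyrosol replicate 3 lay above control replicate 3, so the groups overlapped. The difference was -0.27 (SE 0.12), with a limma adjusted p of 0.72 and a 95% interval from -0.55 to 0.018. The histone gene htas-1, which encodes an H2A variant of sperm chromatin, read 1.63, 1.90 and 1.82 in controls and 1.80, 1.93 and 1.82 with tyrosol, a difference of 0.062 (SE 0.10). Its groups overlapped too.

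The 8 genes of organelle and cell formation had differences from -0.28 to 0.32 and a median of 0.0040. The only member of all 34 whose tyrosol values lay wholly below its control values was spe-5, which encodes a B subunit of the vacuolar proton ATPase that acidifies the membranous organelle. It read 5.84, 6.03 and 5.93 in the controls and 5.65, 5.62 and 5.67 with tyrosol. The tyrosol arrays sat within 0.055 of each other and below the lowest control. The difference of -0.28 (SE 0.091), a 1.22-fold lower mean, had an unadjusted limma p of 0.014 and an adjusted p of 0.46. The other B subunit gene of the worm, vha-12, chosen for this comparison after its values could be seen, read 7.60, 7.60 and 7.66 in controls and 7.57, 7.27 and 7.74 with tyrosol, with overlapping groups and a difference of -0.093 (SE 0.13). Both genes were read on probe sets with the suffix _s_at, which may be shared with other sequences. The 2 genes' differences were not tested against each other.

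The largest difference of all 34, 0.32 (SE 0.12), was that of spe-10, which encodes a membrane protein of the palmitoyltransferase family needed in the same organelle. Control replicates read 1.44, 1.31 and 1.38 and tyrosol replicates 1.47, 1.91 and 1.69. All tyrosol values were above all control values, by 0.038 at the closest pair, at a faint level (percentile 24.5 of all probe sets). Its unadjusted limma p was 0.032 and its adjusted p 0.62. The size rests in part on tyrosol replicate 2: the difference was 0.21 without that array and 0.17 without both replicate 2 arrays, where spe-38 at -0.35 was the farthest from 0. The trafficking gene spe-39, whose protein works with the vesicle-tethering complexes of many tissues, read 7.14, 6.93 and 7.17 in controls and 7.07, 6.64 and 7.15 with tyrosol. Replicate 2 was the lowest array of each group, and the difference was -0.12 (SE 0.15). The casein kinase gene spe-6, needed for MSP assembly and for holding back activation, had overlapping groups: 3.83, 4.02 and 3.56 against 3.90, 3.79 and 3.64, a difference of -0.030 (SE 0.13). The myosin VI gene spe-15 read 3.83, 3.82 and 4.02 in controls and 3.95, 3.59 and 4.25 with tyrosol, a difference of 0.038 (SE 0.16). Tyrosol replicates 2 and 3 were the lowest and the highest of its 6 arrays. The gene spe-18, whose protein is needed for MSP to assemble in the fibrous body, read 3.11, 3.44 and 3.19 against 3.29, 3.53 and 3.22, a difference of 0.099 (SE 0.13). Its groups overlapped, with replicate 2 highest in each. The fainter spe-4, which encodes a presenilin-like protein of the organelle, and spe-26, a kelch-repeat gene of spermatocyte division, differed by -0.069 (SE 0.097) and 0.11 (SE 0.12).

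The 11 activation genes had a median difference of 0.022 and a range from -0.19 to 0.28. Activation runs along a pathway in which spe-8, a non-receptor tyrosine kinase gene, acts with spe-12, spe-19, spe-27 and spe-43, and along a second pathway that seminal fluid triggers in males. In the first, spe-19, which encodes a transmembrane protein, read 1.50, 1.68 and 1.49 in controls and 1.89, 1.91 and 1.72 with tyrosol. The groups did not overlap, the closest pair being 0.036 apart, and the difference of 0.28 (SE 0.10) had an unadjusted limma p of 0.025 and an adjusted p of 0.56. Its partner spe-12 went the other way, from 1.22, 1.36 and 1.37 to 1.08, 1.13 and 1.23, with overlapping groups and a difference of -0.17 (SE 0.094, adjusted p = 0.76). The kinase gene spe-8 differed by -0.024 (SE 0.13) and spe-27 by 0.20 (SE 0.13). The gene spe-43 read 2.99, 3.26 and 2.98 in controls and 2.58, 3.29 and 2.80 with tyrosol, a difference of -0.19 (SE 0.18). Its tyrosol replicates 1 and 3 lay below all controls and tyrosol replicate 2 above them. Members of the pathway thus stood on both sides of 0, and 0 of the 5 passed the rank product or limma.

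In the second pathway, try-5 encodes the serine protease of seminal fluid that starts activation, swm-1 a secreted inhibitor that prevents it from starting too early, and snf-10 a transporter-family protein by which the spermatid answers the protease. The protease gene read 2.58, 3.27 and 2.25 in controls and 2.77, 2.85 and 2.45 with tyrosol. Control replicate 2 was the highest and control replicate 3 the lowest of all 6 arrays, and the difference was -0.0084 (SE 0.24), the widest error among the 34. The inhibitor gene swm-1 read 7.44, 7.82 and 7.56 against 7.45, 8.04 and 7.56. Replicate 2 was the highest in each group and the other replicates nearly coincided, with a difference of 0.074 (SE 0.17). The transporter gene snf-10, at the dimmest signal of the set, read 1.31, 1.39 and 0.99 against 0.93, 1.35 and 1.26, with overlapping groups and a difference of -0.050 (SE 0.15). Of 9 measured markers of male somatic cells, 8 lay below the median level, the exception being cwp-5, and their mean level ran from 1.65 to 1.73 in controls and from 1.44 to 1.72 with tyrosol.

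The remaining activation genes include fer-1, which encodes a large ferlin that fuses the membranous organelle with the cell surface. It read between 1.27 and 1.37 in controls and 1.45, 1.37 and 1.76 with tyrosol. The groups did not overlap by a margin of 0.0029 between control replicate 3 and tyrosol replicate 2, and tyrosol replicate 3 stood highest. The difference was 0.22 (SE 0.12, adjusted p = 0.76). The gene spe-46 read 1.48, 1.59 and 1.81 in controls and 1.59, 2.04 and 2.00 with tyrosol, a difference of 0.25 (SE 0.15, adjusted p = 0.78). Tyrosol replicate 1 lay below the highest control. The gene spe-47, whose protein contains an MSP domain and holds back activation, differed by 0.022 (SE 0.11).

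The 7 genes of sperm-oocyte contact and egg activation had differences from -0.23 to 0.25 and a median of 0.011. The gene spe-9 encodes a surface protein with repeats like those of epidermal growth factor, needed to bind the oocyte. It read 2.11, 1.75 and 2.19 in controls and 2.22, 1.75 and 2.11 with tyrosol, with replicate 2 lowest in each group and a difference of 0.011 (SE 0.16). The channel gene spe-41, which encodes a TRPC cation channel that reaches the surface on activation, read 2.69, 3.30 and 2.87 against 2.85, 2.95 and 2.90. Control replicate 2 exceeded all other arrays, and the difference was -0.053 (SE 0.15). The membrane protein gene spe-38, needed to move that channel to the pseudopod, read 1.41, 1.24 and 1.50 in controls and 1.24, 1.24 and 0.98 with tyrosol, a difference of -0.23 (SE 0.12, adjusted p = 0.75). Its groups met at 1.24. The egg activation gene spe-11, whose protein the sperm carries into the oocyte, read 1.41, 1.13 and 1.20 in controls and 1.35, 1.66 and 1.49 with tyrosol. Only control replicate 1 lay above a tyrosol value there, and the difference was 0.25 (SE 0.12, adjusted p = 0.72). The others were spe-36 and spe-51, which encode secreted proteins with a growth-factor-like and an immunoglobulin-like domain, and spe-49, a gene of the DC-STAMP domain family. They differed by -0.12 (SE 0.14), 0.018 (SE 0.11) and 0.043 (SE 0.093).

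The last 6 genes, spe-21, spe-40, spe-48, spe-54, spe-55 and spe-57, are named only. Their differences ran from -0.17 for spe-40 to 0.14 for spe-54. The bright spe-48 read 5.94, 5.98 and 6.03 in controls and 6.11, 5.996 and 6.09 with tyrosol, with overlapping groups and a difference of 0.083 (SE 0.088). Its interval, from -0.12 to 0.28, was among the narrowest of the 34.

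In all, 4 of the 34 genes had groups that did not overlap, spe-10, spe-19 and fer-1 with higher and spe-5 with lower tyrosol values. That is 11.8% of them, beside 13.7% of all genes (6.92% higher and 6.78% lower). The 3 higher ones all lay below the median level and the lower one above it.

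Other sperm genes did rise on the same arrays. The 23 msp genes, whose proteins form the sperm cytoskeleton, had a median difference of 1.53 with a range from 0.38 to 2.00, and the rank product called 22 of them higher and limma 6 (13 with the replicate block). The largest difference among the 34 spe and fer genes, 0.32, was below the smallest among the msp genes. With msd, ssp, ssq, sss and nsp genes added, the rank product called 27 of 50 higher and 0 lower. Limma called 8 of the 50 higher (16 with the block), and their median was 0.81. Most of the rank product calls were msp genes. Outside msp it called msd-2, msd-4, nspd-2, nspd-4 and ssp-16, so most of the added genes were not called. Of the 50 differences 5 lay below 0, all of them among the added genes. On simulated data the rank product made more false calls than its rate allows, so its counts may be too high. The msp genes were all read on probe sets shared with other sequences (suffix _x_at) and the 34 spe and fer genes on none with that suffix. Of the 34, 26 were read on the plain suffix _at and the others on _s_at, which may also be shared. One msp gene, msp-32, also has a probe set with the plain suffix _at, which read 1.48, 1.70 and 1.61 in controls and 1.65, 1.73 and 1.89 with tyrosol. There the groups overlapped, the difference was 0.16 (SE 0.11), and neither test called it. The same gene's _x_at probe set had the smallest difference of the 23, 0.38, and was the one not called by the rank product. The part of shared probe sets in the contrast was not tested further. Their controls were brighter as well, with a median control level of 3.67 against 1.76. With probe sets of the plain suffix _at alone, 12 of the 50 genes were left, 1 of them an msp gene. There the rank product called 1 of the 12 higher and 0 of the msp genes. The gene ssp-16, whose probe set has the plain suffix _at, was called higher by the rank product and limma. It went from 2.40, 2.55 and 2.60 to 3.24, 3.75 and 3.60. Its mean over the 6 arrays, 3.02, lay above the median of all probe sets, 2.58, but its control mean of 2.52 lay below it. The 6-array means of the 23 fainter spe and fer genes reached 2.14 at most.

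**Figure D3:**
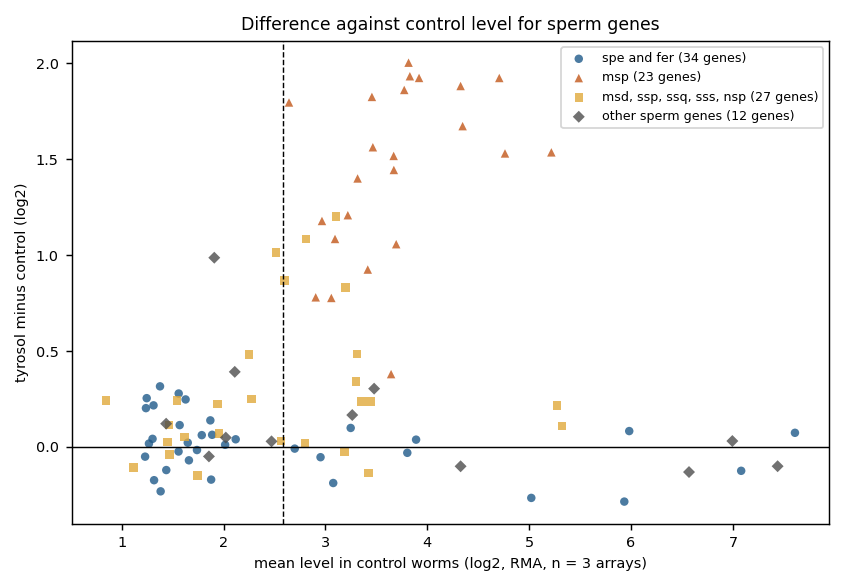
Tyrosol minus control (log2) against the mean control level (log2, n = 3 arrays) for the 34 spe and fer genes, 23 msp genes, 27 genes of other small sperm families and 12 further sperm genes, 1 point per gene. The dashed vertical line is the median of all probe sets. Blue points lie along 0 at every level, while the msp genes lie between 0.38 and 2.00.

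Of 12 further measured genes of sperm formation and function, listed apart from these families, 1 was called. This was the probe set of gsp-3, a protein phosphatase gene of sperm needed for MSP dynamics, which rose from 1.84, 2.07 and 1.82 to 2.83, 2.68 and 3.17. All tyrosol values were above all controls, and the difference was 0.99 (SE 0.14, limma adjusted p = 0.041). Its near-identical partner gsp-4 overlapped between groups, at 2.01, 2.16 and 2.16 against 2.75, 2.09 and 2.66, a difference of 0.39 (SE 0.17, adjusted p = 0.68). Both probe sets have the suffix _x_at, so each may also read other sequences, and the call is that of the probe set. Next in size were smz-1, at 0.30 (SE 0.13), and at the lower end zipt-7.1, a zinc transporter gene of sperm activation, at -0.13 (SE 0.13), mib-1 at -0.10 (SE 0.097) and the kinase gene wee-1.3 at -0.10 (SE 0.19). Of the 12, 3 stood at an unadjusted limma p under 0.05 with higher values and 0 with lower ones. These were gsp-3, gsp-4 and smz-1, where 4.55% of all genes stood higher at that limit. The probe set of smz-1 has the plain suffix _at, its groups overlapped, and neither test called it. The median of the 12 was 0.040, with 8 genes above 0 and 4 below.

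Of 24 measured genes that decide between sperm and oocyte fate, the rank product called 0 and limma 0. Among them 1 stood at an unadjusted limma p under 0.05 (tra-3, a calpain gene of sex determination), and the median difference was 0.024. The sperm-fate genes fog-1 and fog-3 differed by -0.059 (SE 0.093) and 0.10 (SE 0.10). The outermost values were tra-3 at 0.21 (SE 0.090), mog-5 at 0.17 (SE 0.098) and atx-2 at 0.12 (SE 0.11), and mog-4 at -0.29 (SE 0.13), fbf-1 at -0.26 (SE 0.12) and rnp-8 at -0.20 (SE 0.15). On the egg side, 21 genes of the oocyte surface, eggshell and the response to MSP had a median of -0.00060, with 0 called by the rank product or limma and 1, gsa-1, at an unadjusted limma p under 0.05. Its difference of 0.39 (SE 0.16) was followed by lin-41 at 0.21 (SE 0.12) and vab-1, an MSP receptor gene, at 0.21 (SE 0.11). At the other end stood the oocyte maturation genes oma-1, at -0.37 (SE 0.28), and oma-2, at -0.31 (SE 0.24), and puf-5, at -0.27 (SE 0.19). These 3 values rest on tyrosol replicate 2, without which they were -0.018, -0.0067 and -0.048. The value of oma-2 also depends on its probe set. It was 0.20 when only probe sets of the plain suffix _at were used and -0.054 as the mean of its probe sets.

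Some arrays held the extreme values of many of the 34 genes. Tyrosol replicate 2 was the highest of the 6 arrays for 15 of the 34, or 44.1%, beside 21.2% of all genes, and for 12 of the 23 below the median level. Control replicate 1 was the highest for 0 of the 34. Tyrosol replicate 2 also stood apart over all probe sets, with an SD of its deviations from the group mean of 0.21 against 0.11 to 0.15 on the other arrays, and its mean level over 10 oocyte and germ line markers was 9.01, against 9.34 to 9.55 on the others. Control replicate 2 was the highest control for 22 of 23 msp genes, by a median of 0.91 over the mean of the other controls. Among the 34 it was the highest control for 15, or 44.1%, beside 43.8% of all genes, and for 8 of the 11 above the median level, where its excess had a median of 0.28. It exceeded the mean of the other controls most plainly at try-5 and spe-41, whose values are given above. The part of these arrays in the results was not tested beyond leaving them out: without both replicate 2 arrays the median difference of the 34 was 0.0057 and 0 were called.

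**Figure D4:**
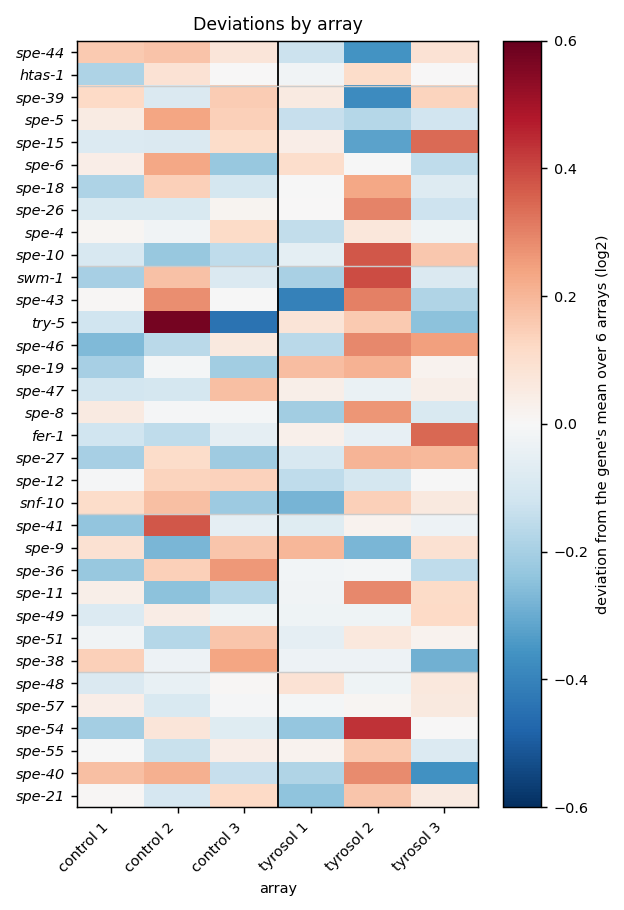
Deviation of each gene's value on each array from its mean over the 6 arrays (log2; red above, blue below), grouped by role as in the plot of levels, with control arrays left and tyrosol arrays right of the black line. The column of tyrosol replicate 2 holds the largest number of row maxima, 15 of 34, and no block of genes changes colour at the line.

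Markers of the tissues of a whole adult were checked beside these genes. The mean level of 9 sperm markers ran from 2.51 to 2.90 in controls and from 3.33 to 3.48 with tyrosol, with 5 of the 9 called higher by the rank product and 3 by limma. All 9 belong to the sperm lists described above, so this restates those values. The 10 oocyte and germ line markers, 7 intestine markers and 6 body wall muscle markers all lay above the median level, with 0 called. Of the oocyte and germ line markers 8 of 10 had lower means with tyrosol (median difference -0.14), and 1 stood at an unadjusted limma p under 0.05. Their mean level was 9.46, 9.01 and 9.45 on tyrosol replicates 1, 2 and 3, so only replicate 2 lay below the control range of 9.34 to 9.55. Of these markers rme-2, oma-1, oma-2 and puf-5 are also among the egg-side genes above. Of the 6 muscle markers 3 did not overlap and were higher, beside 6.92% of all genes. These were act-4 at 0.35 (SE 0.087), mlc-1 at 0.36 (SE 0.11) and unc-15 at 0.18 (SE 0.10), named after their values were seen. The first 2 stood at an unadjusted limma p under 0.05. The muscle markers that overlapped were myo-3 at 0.015 (SE 0.13), unc-54 at -0.083 (SE 0.20) and tnt-2 at -0.15 (SE 0.20). The part of these tissues in the results was not tested. Above the median level were also 6 of 7 markers of the spermatheca and gonad sheath, 5 of 6 of neurons, 4 of 5 of the epidermis and 6 of 8 of the embryo. Of these, wrt-10 of the epidermis was called higher by the rank product and not by limma. Not overlapping and higher were 3 of 5 epidermis, 2 of 7 spermatheca and gonad sheath and 5 of 9 sperm markers. Not overlapping and lower were 2 of 7 intestine and 2 of 9 male somatic markers, beside 6.78% of all genes. Embryo, oocyte and germ line, sperm, and spermatheca and gonad sheath markers held 1 such lower gene each. At an unadjusted limma p under 0.05, 2 of 5 epidermis markers were higher. At that p 2 of 8 embryo, 1 of 7 intestine and 1 of 9 male somatic markers were lower.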

How the data were processed

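Per the labels, the authors normalised the arrays with RMA in affylmGUI, and the deposited values are log2 expression levels, 1 per probe set and array. The log base was taken from their range. For RMA no version is given in the sources used here. Of 22625 probe sets, 77 manufacturer controls were left out, which leaves 22548. Genes were named from the platform annotation through probe sets that name 1 gene, with symbols checked against RefSeq genes (WBcel235, names alone). A gene is represented by its probe set with the highest mean over the 6 arrays. The 34 genes have 35 probe sets, 26 with the plain suffix _at and 9 with _s_at, and only spe-55 has more than 1. Other genes of this kind, fer-15 among them, are not analysed here.

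The rank product was programmed with numpy 2.4.6 (Python 3.11.15, pandas 2.3.3). It took all 9 treated-minus-control differences, 100 permutations of values within arrays and calls at a false discovery rate under 0.05. Limma 3.58.1 in R 4.3.3 gave SE, 95% intervals, unadjusted p and Benjamini-Hochberg adjusted p over all 22548 probe sets (two-sided, called under 0.05). Both were tested on simulated data, where the rank product made more false calls than its rate allows. It was kept as the main test because the design text names it, and limma's counts are given beside it. The number of arrays, 3 per group, limits precision. The labels call the arrays replicates without naming separate cultures, so the p-values reflect array-to-array spread, which may be technical. Deviations from group means of same-numbered arrays correlated at 0.11, 0.37 and 0.26, over 0.1 in each pair. Of the differently numbered pairs, control 3 and tyrosol 1 also correlated at 0.28, and the others at 0.010 or below. By the rule of over 0.1 in every same-numbered pair, the replicate numbers were taken to pair the arrays, and fits with the replicate number as a block were run.

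The genes and lists were chosen with earlier results of these data known. Named with full values were the 10 genes of highest mean, the 5 largest differences in each direction, genes with a call or an unadjusted p under 0.05, and fer-1, htas-1, snf-10, try-5, swm-1, spe-9, spe-11 and spe-44. The other spe genes were added to cover each role. Of the further lists, the 3 largest differences in each direction and called genes were named. Role groups were assigned from textbook knowledge after the values could be seen. Of 17 further names listed for sperm genes, 12 matched the symbol of a measured gene, of 26 fate names 24, and of 23 egg-side names 21. A name without a match, such as trp-3 or hum-3, need not be an unmeasured gene, since other symbols of a gene were not searched.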

Additional observations from a re-analysis of the deposited data

How the results depend on the processing

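Under every alternative tried, 0 of the spe and fer genes were called. With the replicate block the rank product called 232 probe sets of all and limma 163, against 213 and 76 without it, and no call among the 34 changed. The count over all probe sets was 98 with limma's trend and robust variance, 107 without probe sets of other suffixes than _at, 107 without both replicate 2 arrays, and between 100 and 219 without single arrays (118, 140 and 100 without tyrosol replicates 1, 2 and 3). The median difference of the 34 ran from -0.0077 to 0.058 without single arrays and was -0.030 over the 11 genes above the median level. The count of genes that did not overlap, 4, was 6 to 9 without single arrays, where 21.0% to 26.6% of all genes did not overlap because fewer arrays were compared. It was 12 without both replicate 2 arrays (39.2% of all genes) and 1 above the median level, where 11 genes are left. Without other suffixes than _at it was 3, where 26 genes are left and spe-5 is not among them (13.2% of all genes). The call of gsp-3 was lost without tyrosol replicate 3, and the count was 0 without other suffixes and above the median level, since both settings leave its probe set out. Of 342 values of 21 named genes under the alternatives, 153 equal the main value because the setting leaves the difference as it is. Of the other 189, 171 kept their direction and 18 turned, and none of the 342 gained a call. Without both replicate 2 arrays, spe-41, spe-6 and try-5 turned to 0.096, 0.071 and 0.20, and the cause was not tested. Without single arrays htas-1 ran from -0.015 to 0.12, snf-10 from -0.17 to 0.076, spe-15 from -0.12 to 0.21, spe-39 from -0.22 to 0.032, spe-41 from -0.19 to 0.12, spe-6 from -0.15 to 0.078, spe-9 from -0.12 to 0.15, swm-1 from -0.10 to 0.19 and try-5 from -0.23 to 0.28. Without a turn of direction, but by over 1.5 times, moved spe-10 (0.21 to 0.43), fer-1 (0.099 to 0.30), spe-18 (0.0090 to 0.20), spe-38 (-0.30 to -0.15), spe-43 (-0.39 to -0.032), spe-44 (-0.37 to -0.15) and spe-46 (0.17 to 0.39). The farthest difference of the 34 from 0 was between 0.34 and 0.43 in size without single arrays, and its gene varied. With limma's trend and robust variance 10 of 23 msp genes were called. Faint signal limits what the arrays can show for the 23 genes below the median level.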
